A study of Mus musculus with 10 samples.

Results

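The genes described here are 34 members of the enzymes, transporters and regulators that carry glucose carbon through liver, out of 41388 genes in the deposited tables. They were taken by name from a list and fall into 5 branches. Glycolysis holds 13 of them, gluconeogenesis and glucose release 7, the entry of fructose and glycerol 4, glycogen 6, and the pentose phosphate pathway 4. They were measured by RNA sequencing of the livers of 10 mice, all 10 weeks old. The 3 matBFMI libraries are F1 males of a BFMI mother and a B6N father, and the 3 patBFMI libraries are F1 males of a B6N mother and a BFMI father, each from a different litter mother. BFMI (BFMI860-12/Hber, an obese inbred line) and B6N (C57BL/6NCrl, a lean strain) gave 1 male and 1 female each. F1 males received a high fat diet from day 21 to day 70. For the inbred animals the treatment label names a standard breeding diet, while the design text and the paper name a high fat diet, so their diet is uncertain.

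Hepatocytes split glucose to pyruvate by glycolysis and rebuild it from lactate, amino acids and glycerol by gluconeogenesis, and the steps that run in one direction only are made by separate enzymes. Fructose and glycerol join the chain at the level of the triose phosphates, beyond the phosphofructokinase step. Surplus glucose is stored as glycogen, and the pentose phosphate pathway draws glucose 6-phosphate off to supply NADPH and ribose. Feeding, insulin and sugar are known to favour Pklr, Khk and the lipogenic genes, whereas fasting and glucagon favour Pck1 and G6pc.

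Short stretches upstream of the RefSeq start sites (build GRCm38.p6) show the 6 members whose promoter, from 250 bases before to 50 bases after the start, holds the E-box core CACGTG, the site of the USF, MYC and clock families of transcription factors. They are printed from the gene's own strand, 5′ to 3′, with the motif in capitals. Ldha also holds the full cAMP response element TGACGTCA, here at the right-hand end.
Pfkfb3 chr2:11502111-11502170 (-): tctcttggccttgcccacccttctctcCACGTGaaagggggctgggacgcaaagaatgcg
Ldha chr7:46845740-46845799 (+): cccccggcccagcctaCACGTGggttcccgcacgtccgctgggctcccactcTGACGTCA
Pcx chr19:4510222-4510281 (+): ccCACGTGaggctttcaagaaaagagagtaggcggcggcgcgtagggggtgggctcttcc
Khk chr5:30921461-30921520 (+): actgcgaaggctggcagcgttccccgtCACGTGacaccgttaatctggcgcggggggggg
Gk chrX:85776845-85776904 (-): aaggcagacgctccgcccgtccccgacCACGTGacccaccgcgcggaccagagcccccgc
Ppp1r3c chr19:36736676-36736735 (-): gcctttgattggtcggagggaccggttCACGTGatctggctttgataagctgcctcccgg
Of the members, 31 had a promoter entry, with 46 promoters in all. The E-box was found in 6 of these 46 promoters, 1 for each gene shown, and in 7.15% of all 32851 promoters. Its first base lies 53 bases before the start in Pfkfb3, 71 in Khk, 58 in Gk, 104 in Ppp1r3c, 248 in Pcx, and 145 and 48 in Ldha. TGACGTCA occurs in Ldha, 12 bases before its start, and in 1.79% of all promoters, and the sterol response element TCACCCCAC occurs in no member and in 0.551% of promoters. Both strands were searched, the motifs did not overlap, and a match describes letters only.

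For 6 glycolytic members the count is uncertain, because other loci in the tables have nearly the same transcript. Loci of at least 95% identity over at least 200 bases took 251312 reads over the 10 libraries for Gapdh (72 loci), against 14720 reads assigned to Gapdh itself. The same sums were 149642 for the copies of Pgk1, against 30291 for Pgk1, and 130224 for those of Eno1, against 33957 for Eno1. Gpi1 (copies at 116% of its own reads), Pgam1 (64.9%) and Ldha (5.64%) were affected less. The coding stretches below, at bases 316 to 375 of the coding sequence of Gapdh, show how little separates that gene on chromosome 6 from a copy on chromosome 2, the single difference being in capitals.
Gapdh: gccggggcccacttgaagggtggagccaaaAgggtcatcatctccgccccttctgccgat
Gm13394: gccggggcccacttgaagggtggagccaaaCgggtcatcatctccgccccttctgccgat
For Pgk1, on chromosome X, bases 4 to 63 of the coding sequence are letter for letter the same in Pgk1-rs7 on chromosome 12 and in Gm5537 on chromosome 3.
Pgk1, Pgk1-rs7 and Gm5537: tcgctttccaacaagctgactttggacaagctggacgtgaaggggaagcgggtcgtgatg
The member and its copies summed were therefore fitted as well, an alternative chosen after the data were seen. In the F1 comparison the summed log2 fold changes were 0.03 for Pgk1, 0.10 for Pgam1 and 0.17 for Ldha, against 0.02, 0.04 and 0.17 for the members alone.

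**Figure D1:**
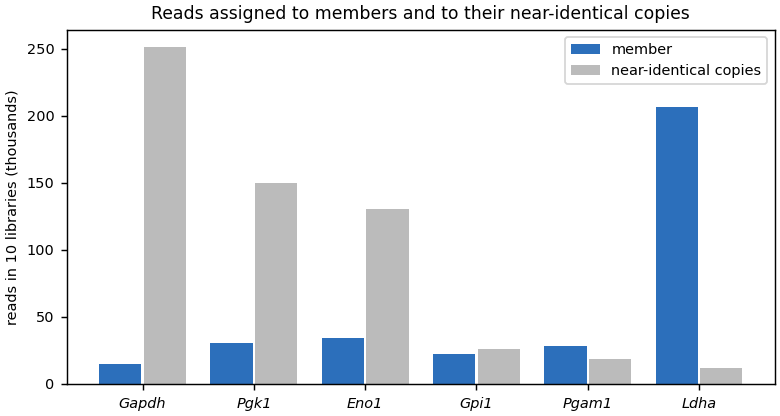
Reads assigned to the 6 members with near-identical copies (blue bars) and to all their copies together (grey bars), summed over the 10 libraries, as reads divided by 1000. Copies of Gapdh took 251312 reads and Gapdh 14720, while for Ldha the copies took 11639 reads and the member 206310.

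Each library held between 46988713 and 96023811 reads assigned to genes, and the 34 members took 0.684% to 0.975% of them. The values below are CPM, read counts scaled to a common library size after TMM scaling (a scaling that equalizes libraries on the bulk of their genes), and levels of different genes are compared only as deposited RPKM, which accounts for gene length. matBFMI 3 stood apart among the F1 libraries, as the highest of 6 for 24 of 34 members, and patBFMI 1 was the lowest for 20. patBFMI 1 also had 32421 genes with a count, against 22095 and 23490 in patBFMI 2 and 3 and 22415 to 26694 in matBFMI. The inbred libraries had 29942 to 34572. The part of this difference between libraries in the members' values was not tested. Relative to each member's mean over the 10 libraries, the median deviation of the 34 members was 0.04, 0.08 and 0.31 (log2) in matBFMI 1, 2 and 3, against -0.16, 0.04 and -0.09 in patBFMI 1, 2 and 3. Each matBFMI library was run on lane 6 and each patBFMI library on lane 5, and effects of the lane and of the cross therefore cannot be told apart. In bulk liver, fewer cells of a type and less RNA per cell cannot be told apart either.

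The members span a wide range of levels. By median RPKM over the 10 libraries, Pck1, which makes phosphoenolpyruvate in the cytosol and controls gluconeogenesis, was the highest at 499.6. It was followed by the gluconeogenic fructose bisphosphatase Fbp1 at 442, by Ugp2, which makes UDP-glucose for glycogen, at 148, and by the liver glycogen phosphorylase Pygl at 142. At the low end stood the mitochondrial isoform Pck2 at 0.682, Pfkfb3, which makes the phosphofructokinase activator fructose 2,6-bisphosphate, at 1.52, and the glucose 6-phosphate dehydrogenase gene G6pdx at 2.15. The gap between Pck1 and Fbp1 was smaller than the spread of Pck1 over libraries, whose RPKM ran between 369.9 and 1292.

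**Figure D2:**
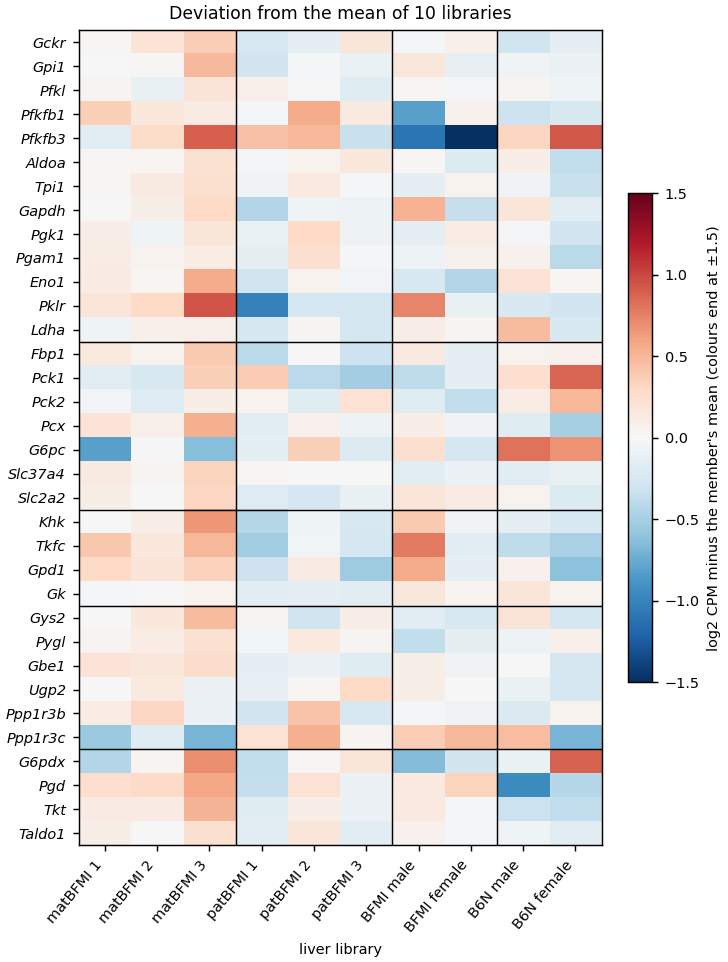
Deviation of each member's log2 CPM from its mean over the 10 libraries, for the 34 members (rows, by branch) and the 10 liver libraries (columns), with red above and blue below the mean. The matBFMI 3 column is mostly red, with a median of 0.31, and the patBFMI 1 and B6N female columns are mostly blue, with medians of -0.16 and -0.22.

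The direction of cross was tested first, in the 6 F1 males. None of the 34 members passed an adjusted p of 0.05 in edgeR's quasi-likelihood test, in either direction, where 0.0953% of the 16797 genes tested were called higher and 0.0476% lower in matBFMI. At an unadjusted p under 0.05, 12 members lay higher in matBFMI and 1 lower, against 5.14% and 4.7% of all genes. The log2 fold change was positive for 29 of 34 members, against 48.9% of all genes, with a median of 0.16 against -0.01 over all genes. All 3 matBFMI libraries lay above all 3 patBFMI libraries for 14 members, against 8.25% of all genes, and below them for 1 member, against 7.07%. Without matBFMI 3 the counts at unadjusted p under 0.05 were 5 and 1, and 24 members had a positive log2 fold change. Without patBFMI 1 they were 7 and 1, and 25 members were positive. As alternative tests, DESeq2 called 4 members (Pklr, Tkfc and Gbe1 higher and Ppp1r3c lower in matBFMI) and limma voom called 0.

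**Figure D3:**
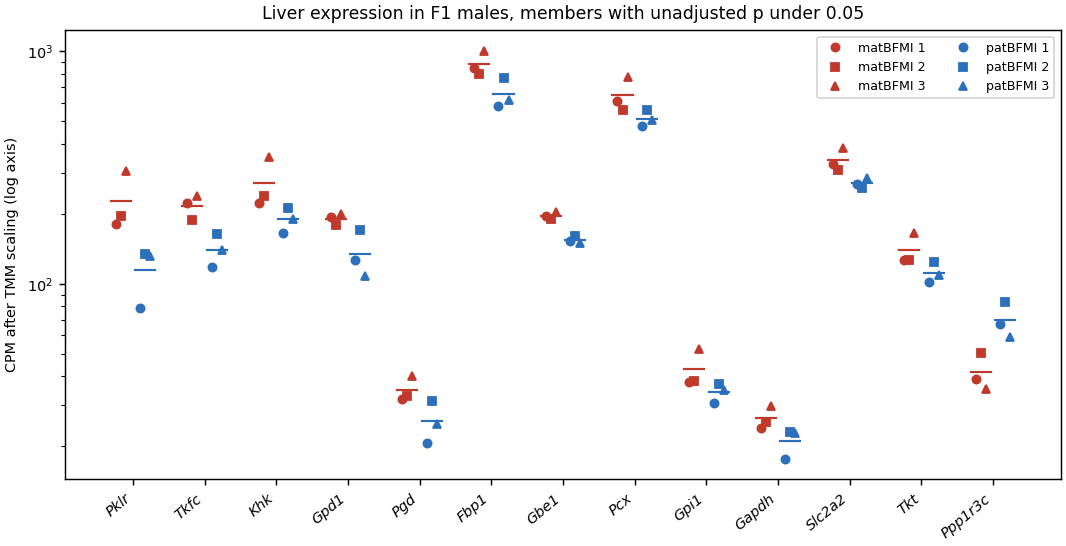
CPM after TMM scaling (log axis) of the 13 members with unadjusted p under 0.05 between matBFMI (red) and patBFMI (blue), with 1 symbol per library and a line at the mean of 3 libraries. For 12 of them the 3 red symbols lie above the 3 blue ones, and for Ppp1r3c, at the right, they lie below.

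In glycolysis the liver pyruvate kinase Pklr (chr3:89136142-89146784, build mm10, plus strand), which makes the last and irreversible step to pyruvate, had the largest difference of all members. It was at 181, 196 and 307 CPM in matBFMI 1, 2 and 3, against 78.5, 134 and 132 CPM in patBFMI 1, 2 and 3 (log2 fold change 0.98, SE 0.243, adjusted p = 0.221). The groups did not overlap, matBFMI 3 was the highest and patBFMI 1 the lowest, and the log2 fold change was 0.71 without matBFMI 3 and 0.78 without patBFMI 1. The gene Hcn3 overlaps Pklr on the other strand, and it stood at 12.8, 13.6 and 21.3 CPM in the matBFMI libraries and at 3.42, 7.51 and 9.54 CPM in the patBFMI libraries, with the same order of groups. Whether reads were counted by strand is not given in the sources used here, so reads of both genes cannot be told apart where they overlap. Pklr passed the adjusted threshold in the alternative test with DESeq2 (adjusted p = 0.000848).

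The other glycolytic members had log2 fold changes between -0.04 (Pfkfb1) and 0.33 (Eno1) in the F1 comparison, smaller than that of Pklr. Gapdh was at 24.1, 25.6 and 29.9 CPM in matBFMI and at 17.7, 23.0 and 22.9 CPM in patBFMI (log2 fold change 0.31, or 0.27 with its copies summed). Eno1, the enolase, stood at 63.8, 59.8 and 86.5 CPM in matBFMI, against 47.6, 60.9 and 56.8 CPM in patBFMI (log2 fold change 0.33, or 0.35 with its copies). The groups of Gapdh did not overlap, while those of Eno1 did, since patBFMI 2 exceeded matBFMI 2. Gpi1, the isomerase of glucose 6-phosphate, did not overlap either (log2 fold change 0.31, or 0.27 with its copy). The aldolase Aldoa, at 57.6, 58.2 and 66.7 CPM in matBFMI and 55.5, 59.1 and 63.7 CPM in patBFMI, and the lactate dehydrogenase Ldha, at 335, 372 and 372 CPM in matBFMI and 295, 362 and 292 CPM in patBFMI, overlapped. Pfkfb1, the liver isoform that makes and breaks fructose 2,6-bisphosphate, was at 46.2, 40.2 and 39.2 CPM in matBFMI, against 35.4, 53.1 and 39.4 CPM in patBFMI. Pfkfb3 was at 8.45, 11.7 and 18.1 CPM in matBFMI, against 13.1, 13.7 and 7.45 CPM in patBFMI, and varied within both groups more than between them. Over the remaining 5 glycolytic members (Gckr, Pfkl, Tpi1, Pgk1 and Pgam1) log2 fold changes ran between 0.02 and 0.25, and the groups overlapped. The sign of the difference changed with the scaling for Pfkfb1, Aldoa and Pgk1. Of the skeletal muscle markers, 5 of 5 tested lay higher in matBFMI at unadjusted p under 0.05, and 0 passed the adjusted threshold. The markers summed to 28.3, 4.15 and 2.44 CPM in matBFMI 1, 2 and 3, against 1.34, 0.598 and 0.270 CPM in patBFMI 1, 2 and 3 (7 markers, none at 0 in all libraries). With sums this low in patBFMI, a marker could pass the filter on low counts mainly through the matBFMI libraries. The filter thus favoured this direction, and the 5 of 5 cannot be set against the share of all genes. The part of muscle in the members' values was not tested.

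The entry of fructose and glycerol was the branch with the highest median log2 fold change, 0.50 over its 4 members. Tkfc (chr19:10587791-10605654, minus strand), which phosphorylates glyceraldehyde and dihydroxyacetone, was at 224, 189 and 238 CPM in matBFMI 1, 2 and 3, against 118, 164 and 139.8 CPM in patBFMI 1, 2 and 3 (log2 fold change 0.62, SE 0.139, adjusted p = 0.174). Khk, the ketohexokinase that starts fructose breakdown, was at 224, 239 and 352 CPM in matBFMI, against 166, 213 and 189.7 CPM in patBFMI (log2 fold change 0.51, SE 0.175, adjusted p = 0.392). For Gpd1, which links glycerol 3-phosphate with dihydroxyacetone phosphate, the values were 193, 179 and 199.6 CPM in matBFMI, against 126, 170.1 and 108 CPM in patBFMI (log2 fold change 0.49, SE 0.158, adjusted p = 0.352). In all 3 genes the lowest matBFMI value exceeded the highest patBFMI value, and no difference passed the adjusted threshold. The log2 fold change of Tkfc was 0.54 without matBFMI 3 and 0.52 without patBFMI 1, and that of Khk was 0.28 without matBFMI 3 and 0.44 without patBFMI 1. Gk, the glycerol kinase, stood at 146, 149 and 154 CPM in matBFMI, against 133, 136 and 133 CPM in patBFMI, also without overlap (log2 fold change 0.15). Of the genes that overlap Tkfc on the other strand, Ddb1 had a log2 fold change of 0.07 and Cyb561a3 of -0.35 against 0.62 for Tkfc, and the part of overlapping reads was not tested. DESeq2 called Tkfc higher in matBFMI (adjusted p = 0.00214).

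Among the gluconeogenic members the signs of the differences were mixed. Fbp1 was at 849.7, 799 and 1008 CPM in matBFMI, against 582, 767 and 621 CPM in patBFMI (log2 fold change 0.42, SE 0.130, adjusted p = 0.328), without overlap. By contrast G6pc, the glucose 6-phosphatase that makes free glucose, was at 176, 305 and 199 CPM in matBFMI, against 280.2, 398 and 268 CPM in patBFMI (log2 fold change -0.49, SE 0.222, adjusted p = 0.524), with overlapping libraries. The main gene of the pathway, Pck1, was at 1645, 1569.5 and 2376 CPM in matBFMI, against 2416, 1402 and 1296 CPM in patBFMI (log2 fold change 0.11), and patBFMI 1 was the highest of the 6. Without patBFMI 1 the log2 fold change of Pck1 was 0.47, and without matBFMI 3 it was -0.10. Pck2 was at 1.59, 1.37 and 1.80 CPM in matBFMI, against 1.73, 1.39 and 2.01 CPM in patBFMI. The pyruvate carboxylase Pcx (log2 fold change 0.33), the glucose transporter Slc2a2 (0.31) and the glucose 6-phosphate transporter Slc37a4 (0.15) lay higher in every matBFMI library. The margin was narrow for Pcx (560.6 CPM in matBFMI 2, 559.0 in patBFMI 2) and Slc37a4 (148.8 CPM in matBFMI 2, 146.8 in patBFMI 1). Without matBFMI 3 the log2 fold change of Pcx was 0.18.

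In glycogen metabolism Ppp1r3c (chr19:36731731-36736653, minus strand), a subunit that targets protein phosphatase 1 to glycogen and favours synthesis, was the only member below in all matBFMI libraries. It was at 39.0, 50.7 and 35.4 CPM in matBFMI 1, 2 and 3, against 67.0, 83.4 and 58.9 CPM in patBFMI 1, 2 and 3 (log2 fold change -0.76, SE 0.164, adjusted p = 0.158). Its log2 fold change was -0.65 without matBFMI 3 and -0.77 without patBFMI 1. The related subunit Ppp1r3b, the main one of liver, had a log2 fold change of 0.10 with overlapping groups. Gbe1, the branching enzyme, was at 196, 190.3 and 205 CPM in matBFMI, against 153, 160.3 and 149.6 CPM in patBFMI (log2 fold change 0.34, SE 0.0918, adjusted p = 0.259), and the spread within each group was small, with means of 197 ± 7.17 and 154 ± 5.44 CPM in matBFMI and patBFMI (SD, n = 3 each). Pygl stood at 579, 607 and 658 CPM in matBFMI, against 548, 625 and 578 CPM in patBFMI. The glycogen synthase Gys2 (0.25) and Ugp2 (-0.06, with a sign that changed with the scaling) also overlapped. DESeq2 called Ppp1r3c lower (adjusted p = 0.000844) and Gbe1 higher (adjusted p = 0.0297).

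In the pentose phosphate pathway all 4 members had a positive log2 fold change, and the groups overlapped for G6pdx and Taldo1 and did not for Pgd and Tkt. G6pdx, which commits glucose 6-phosphate to the pathway, was at 4.37, 6.29 and 10.2 CPM in matBFMI, against 4.62, 6.25 and 7.01 CPM in patBFMI, and the groups overlapped. Pgd, the second NADPH-producing dehydrogenase, was at 31.9, 32.8 and 40.3 CPM in matBFMI, against 20.7, 31.2 and 25.0 CPM in patBFMI (log2 fold change 0.44, SE 0.146, adjusted p = 0.370). Tkt, the transketolase of the reversible part, was at 127, 127 and 165 CPM in matBFMI, against 102, 124 and 109 CPM in patBFMI (log2 fold change 0.31, SE 0.129, adjusted p = 0.481). Neither Pgd nor Tkt overlapped between the groups, though the lowest matBFMI library of each was close to patBFMI 2. Taldo1, the transaldolase, had a log2 fold change of 0.13, and that of G6pdx was 0.21.

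Neighbouring pathways gave no call in the F1 comparison. None of the 21 other glycolytic genes, 15 other gluconeogenic genes, 14 genes of pyruvate oxidation, 26 other glycogen genes, 15 other genes of the pentose phosphate pathway and NADPH supply, 12 genes of galactose, mannose and sorbitol entry and 31 regulators of hepatic glucose genes that were tested passed the adjusted threshold. Their counts at unadjusted p under 0.05 were 2, 2, 2, 4, 3, 0 and 3 higher and 0, 0, 0, 0, 1, 0 and 1 lower in matBFMI. Over all genes tested, 5.14% lay higher and 4.7% lower at that threshold, the shares to set beside these counts and those of the markers below. The median log2 fold changes of these lists lay between -0.02 and 0.18. Hepatocyte markers summed to 81220.1 to 89924 CPM in matBFMI and 76723 to 87171 CPM in patBFMI, and 4 of the 10 lay lower and 0 higher in matBFMI at unadjusted p under 0.05. Of 12 Kupffer cell and macrophage markers, 9 lay lower in matBFMI at unadjusted p under 0.05, none passed the adjusted threshold, and their sum was 253 to 287 CPM in matBFMI and 316 to 330.3 CPM in patBFMI. The part of these cells in the members' values was not tested.

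**Figure D4:**
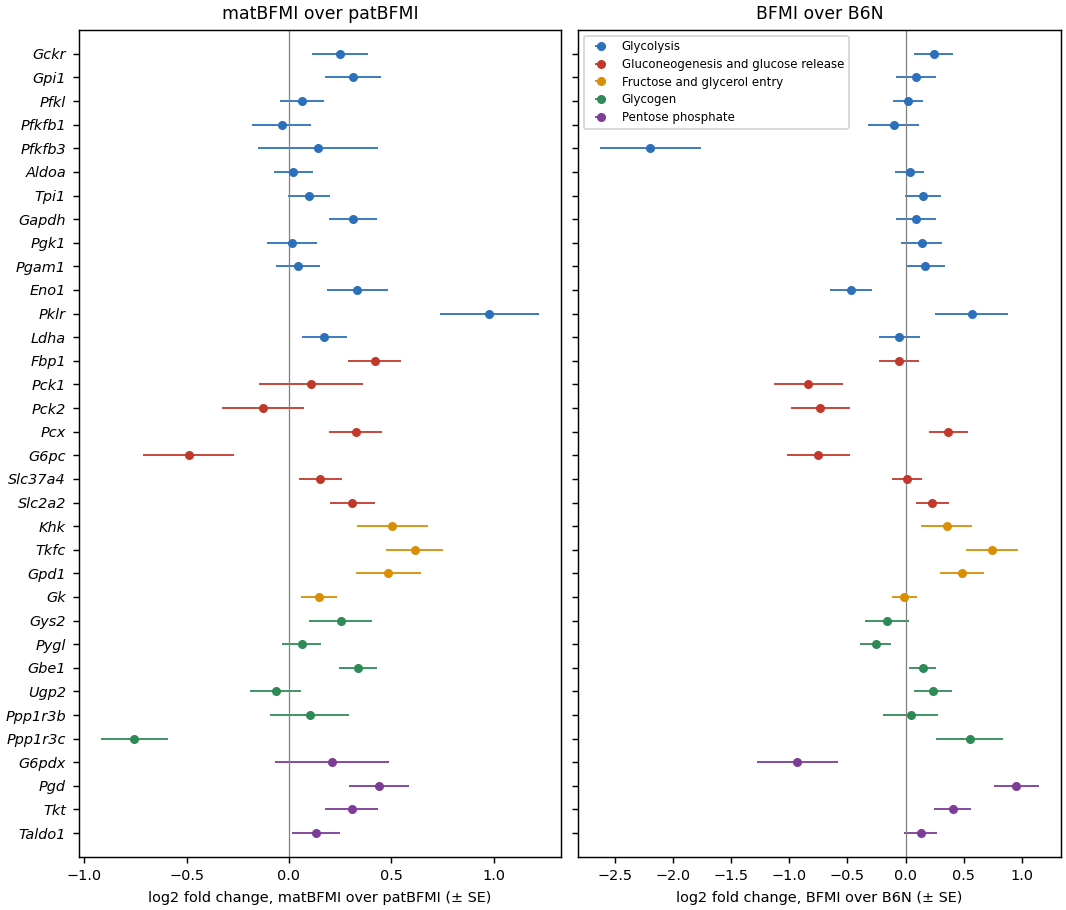
Log2 fold changes (points) with their standard errors (bars) for the 34 members, coloured by branch, for matBFMI over patBFMI (left) and BFMI over B6N (right), on separate horizontal scales. On the left 29 points lie above 0, with Pklr at 0.98 and Ppp1r3c at -0.76 at the ends, and on the right Pgd at 0.95 and Pfkfb3 at -2.19 are the ends.

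The inbred strains were compared in a fit of all 10 libraries with a term for sex, over 19974 genes. With 1 male and 1 female per strain, most of the spread in that fit comes from the F1 males. Pgd was called higher and Pfkfb3 lower in BFMI, 1 member in each direction, where 3.61% of all genes were called higher and 3.05% lower. At an unadjusted p under 0.05, 4 members lay higher and 6 lower, against 9.72% and 8.56% of all genes. Positive log2 fold changes were found for 22 of 34 members, against 45.4% of all genes, and the medians were 0.09 over the members and -0.04 over all genes. Both BFMI libraries lay above both B6N libraries for 10 members, against 20.8% of all genes, and below them for 7, against 23.0%. DESeq2 called 4 members (Pgd and Tkfc higher, Pfkfb3 and G6pc lower), and limma voom called Pgd and Pfkfb3.

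**Figure D5:**
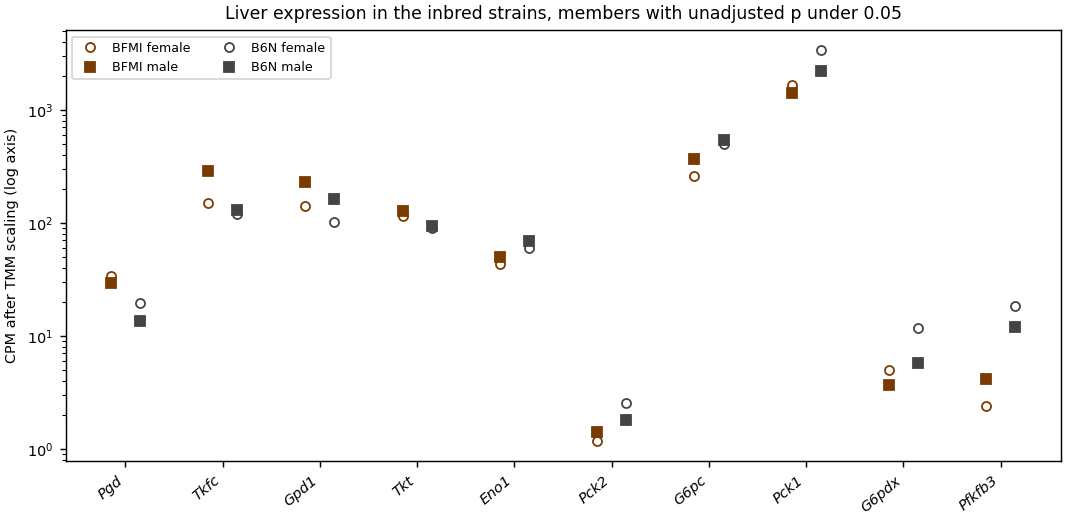
CPM after TMM scaling (log axis) in the 4 inbred libraries for the 10 members with unadjusted p under 0.05 between BFMI (brown, left) and B6N (grey, right), with circles for females and squares for males. Both BFMI symbols lie above both B6N symbols for Pgd, Tkfc and Tkt and below them for Eno1, Pck2, G6pc, Pck1, G6pdx and Pfkfb3, while those of Gpd1 overlap.

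Pfkfb3 (chr2:11471433-11554077, minus strand) fell in BFMI. It was at 4.18 in the BFMI male and 2.41 in the BFMI female, against 12.1 in the B6N male and 18.5 in the B6N female (CPM; log2 fold change -2.19, SE 0.432, adjusted p = 0.0132). The call was lost without the BFMI female or without the B6N female. Both of these fits compare the BFMI male with the B6N male alone, so they are the same comparison, with a log2 fold change of -1.53. The F1 males, at 7.45 to 18.1 CPM, lay above both BFMI libraries. Of the other regulators of the phosphofructokinase step, Pfkfb1 was at 20.2 in the BFMI male and 37.7 in the BFMI female, against 29.0 in the B6N male and 30.2 in the B6N female (CPM; log2 fold change -0.10).

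Pgd (chr4:149149991-149166771, minus strand) rose in BFMI. It was at 29.6 in the BFMI male and 33.8 in the BFMI female, against 13.6 in the B6N male and 19.7 in the B6N female (CPM; log2 fold change 0.95, SE 0.191, adjusted p = 0.0147). The call was lost when any 1 of the 4 inbred libraries was left out, with log2 fold changes between 0.78 and 1.12. Each of these fits compares the strains within 1 sex only, 1 animal against 1. The first enzyme of the pathway had the opposite sign, since G6pdx was at 3.70 in the BFMI male and 4.97 in the BFMI female, against 5.69 in the B6N male and 11.7 in the B6N female (CPM; log2 fold change -0.93, SE 0.345, adjusted p = 0.169). For Tkt the values were 128 in the BFMI male and 114 in the BFMI female, against 92.9 in the B6N male and 89.9 in the B6N female (CPM; log2 fold change 0.40, SE 0.161, adjusted p = 0.202). Thus within this branch the log2 fold changes ran from -0.93 for G6pdx to 0.95 for Pgd, with neither G6pdx nor Tkt past the adjusted threshold. Ikbkg, which overlaps G6pdx on the other strand, had a log2 fold change of 0.41.

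Of the 7 members for glucose synthesis and release, Pck1, Pck2 and G6pc lay lower in BFMI at unadjusted p under 0.05 without passing edgeR's adjusted threshold. Pck1 was at 1419 in the BFMI male and 1669 in the BFMI female, against 2211 in the B6N male and 3407 in the B6N female (CPM; log2 fold change -0.83, SE 0.297, adjusted p = 0.149). G6pc was at 365 in the BFMI male and 261 in the BFMI female, against 546 in the B6N male and 494 in the B6N female (CPM; log2 fold change -0.75, SE 0.270, adjusted p = 0.155). The lower-expressed Pck2 was at 1.39 in the BFMI male and 1.16 in the BFMI female, against 1.81 in the B6N male and 2.52 in the B6N female (CPM; log2 fold change -0.73, SE 0.256, adjusted p = 0.142). In each of these 3 genes both BFMI libraries lay below both B6N libraries, and the B6N female was the highest for Pck1 and Pck2. In the fit of the 4 inbred libraries alone Pck1 and G6pc passed the adjusted threshold (adjusted p = 0.0305 and 0.0325), as did G6pdx (0.00215), all lower in BFMI. That fit has only these 4 animals to estimate the spread. It called 811 of all genes higher and 688 lower, against 722 and 610 in the fit of all 10 libraries. Fbp1, which acts between Pck1 and G6pc in the pathway, was at 844 in the BFMI male and 700.5 in the BFMI female, against 795 in the B6N male and 805 in the B6N female (CPM; log2 fold change -0.06). Pcx, Slc37a4 and Slc2a2 had log2 fold changes of 0.37, 0.01 and 0.23, and for Pcx and Slc2a2 both BFMI libraries lay above both B6N libraries. The sign for Slc37a4 changed with the scaling.

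Tkfc and Gpd1 of the fructose and glycerol branch lay higher in BFMI than in B6N of the same sex. Tkfc was at 291 in the BFMI male and 149.6 in the BFMI female, against 129 in the B6N male and 121 in the B6N female (CPM; log2 fold change 0.74, SE 0.222, adjusted p = 0.0846). Gpd1 was at 231 in the BFMI male and 142 in the BFMI female, against 164 in the B6N male and 102 in the B6N female (CPM; log2 fold change 0.49, SE 0.190, adjusted p = 0.194). In both genes the BFMI male, run on lane 1 while the other inbred libraries were run on lane 4, was the highest of the 4, and for Gpd1 the BFMI female lay below the B6N male. Khk was at 293 in the BFMI male and 216 in the BFMI female, against 204 in the B6N male and 190.3 in the B6N female (CPM; log2 fold change 0.35), and Gk at 169 in the BFMI male and 154 in the BFMI female, against 169.8 in the B6N male and 155 in the B6N female (CPM; log2 fold change -0.01). Pklr had the same order of animals as Tkfc and Khk, at 264 in the BFMI male and 148 in the BFMI female, against 137 in the B6N male and 130.4 in the B6N female (CPM; log2 fold change 0.57, SE 0.315, adjusted p = 0.408). The log2 fold change of Tkfc was 0.34 without the BFMI male, and ran between 0.31 and 1.17 over the fits that left out 1 library. Leaving out either inbred female compares the BFMI male with the B6N male alone, and leaving out either inbred male compares the females alone. Tkfc passed the adjusted threshold in the 4 inbred libraries alone, with no filter on low counts, and with DESeq2 (adjusted p = 0.00674).

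Of the remaining members, Eno1 was at 49.5 in the BFMI male and 43.2 in the BFMI female, against 68.4 in the B6N male and 59.8 in the B6N female (CPM; log2 fold change -0.47, SE 0.181, adjusted p = 0.189). With its copies summed the sign was the opposite (log2 fold change 0.18), so no direction can be given for enolase. Ppp1r3c was at 74.3 in the BFMI male and 81.1 in the BFMI female, against 79.5 in the B6N male and 35.2 in the B6N female (CPM; log2 fold change 0.55), the B6N female being the lowest. Pygl was at 436 in the BFMI male and 508 in the BFMI female, against 535 in the B6N male and 592 in the B6N female (CPM), and Gbe1 at 181 in the BFMI male and 163 in the BFMI female, against 168 in the B6N male and 142 in the B6N female (CPM). Gapdh was at 34.9 in the BFMI male and 18.9 in the BFMI female, against 27.4 in the B6N male and 21.4 in the B6N female (CPM), Aldoa at 57.3 in the BFMI male and 49.2 in the BFMI female, against 60.8 in the B6N male and 44.0 in the B6N female (CPM), and Ldha at 376 in the BFMI male and 363 in the BFMI female, against 489 in the B6N male and 301 in the B6N female (CPM), all with overlapping strains. The 10 remaining members (Gckr, Gpi1, Pfkl, Tpi1, Pgk1, Pgam1, Gys2, Ugp2, Ppp1r3b and Taldo1) had log2 fold changes between -0.16 and 0.24.

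Some genes on the lists of neighbouring pathways passed the threshold between the strains, where, as above, 3.61% of all genes were called higher and 3.05% lower. Of the other glycogen genes, 2 of 27 were called, both lower in BFMI: Gyg, glycogenin, the primer of glycogen chains (log2 fold change -1.48, adjusted p = 0.000721), and Ppp1r3g, another glycogen-targeting subunit (log2 fold change -3.54, adjusted p = 0.0321), which was at 0.247 and 0.718 CPM in the BFMI male and female, against 1.77 and 12.3 CPM in the B6N male and female. Of the other glycolytic genes, 3 of 23 were called, Gpd1l (log2 fold change 0.74, adjusted p = 0.00482) and the D-lactate dehydrogenase Ldhd (log2 fold change 0.59, adjusted p = 0.0436) higher and the ADP-dependent glucokinase Adpgk (log2 fold change -0.84, adjusted p = 0.0116) lower. Sord, the sorbitol dehydrogenase of the polyol route to fructose, was lower (log2 fold change -1.05, adjusted p = 0.00106). Ugdh (log2 fold change 0.75, adjusted p = 0.0306) and Aldh1a1 (log2 fold change 1.15, adjusted p = 0.0159), placed on the same list of 12 for galactose, mannose and sorbitol entry, were higher. Pdk2, a kinase that switches pyruvate dehydrogenase off, was the 1 called of 14 genes of pyruvate oxidation (log2 fold change 0.73, adjusted p = 0.00881), and Slc2a9 the 1 of 17 other gluconeogenic and transport genes (log2 fold change 0.48, adjusted p = 0.0438), both higher in BFMI. Of 31 regulators, Usf1, which binds the E-box, was higher (log2 fold change 0.78, adjusted p = 0.0221), and the insulin receptor substrate Irs2 (log2 fold change -1.11, adjusted p = 0.00478) and the kinase Sik1 (log2 fold change -0.55, adjusted p = 0.0433) were lower. None of 15 other pentose phosphate and NADPH genes was called.

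Markers of other cells differed between the strains as well. Of 12 Kupffer cell and macrophage markers, 6 were lower in BFMI, with a sum of 311 to 369 CPM in BFMI and 528 to 529 CPM in B6N. Of 6 erythroid markers, 4 were higher, with a sum of 734 to 919.7 CPM in BFMI and 225 to 395 CPM in B6N. Of 7 exocrine pancreas markers, 6 were lower, with log2 fold changes between -7.17 and -6.46. The 7 summed to 16.5 to 28.6 CPM in BFMI and 30.3 to 120.4 CPM in B6N. Most of the BFMI sum was Cela1, the marker not called, at 16.2 and 28.1 CPM in the BFMI male and female. Cela1 was at 13.7 and 24.3 CPM in the B6N male and female. Pnlip, among those called, was at 0.0494 and 0.116 CPM in the BFMI male and female, against 4.62 and 23.9 CPM in the B6N male and female. None of these 25 markers was at 0 in all libraries, and their part in the members' values was not tested. Hepatocyte markers summed to 78237 to 101778 CPM in BFMI and 86718 to 99176 CPM in B6N.

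Between the sexes no member passed the adjusted threshold, where 0.31% of all genes were called higher and 0.245% lower in females. The term rests on the 4 inbred animals, since all F1 libraries are from males. At an unadjusted p under 0.05 no member lay higher in females and 4 lay lower, against 3.83% and 3.96% of all genes. Positive log2 fold changes were found for 10 of 34 members, against 54.7% of all genes. Gpd1 was at 142 CPM in the BFMI female and 102 CPM in the B6N female, against 231 CPM in the BFMI male and 164 CPM in the B6N male (log2 fold change -0.69, SE 0.190, adjusted p = 0.217). Gapdh was at 18.9 and 21.4 CPM in those females, against 34.9 and 27.4 CPM in those males (log2 fold change -0.62, SE 0.173, adjusted p = 0.221, or log2 fold change -0.57 with its copies). In both genes the female of each strain lay below the male of that strain. Tkfc (-0.53) and Aldoa (-0.34) were the other 2. DESeq2 called Gapdh and Gpd1 lower in females, and limma voom called 0 members. Of the other lists of glucose genes, the transaminase gene Got1 (log2 fold change 1.48, adjusted p = 0.0328; 1 of 17) and Arrdc4, a sugar-responsive arrestin (log2 fold change 1.21, adjusted p = 0.0123; 1 of 31 regulators), were called higher in females. Exocrine pancreas markers, 2 of 7 called, summed to 28.6 and 120.4 CPM in the BFMI and B6N females, against 16.5 and 30.3 CPM in the males. Within these sums Cela1 was at 28.1 and 24.3 CPM in the BFMI and B6N females, against 16.2 and 13.7 CPM in the males. Of 6 erythroid markers, 4 lay lower in females at unadjusted p under 0.05 (1 called, Alas2), with sums of 734 and 225 CPM in the BFMI and B6N females, against 919.7 and 395 CPM in the males. Of 10 hepatocyte markers, 4 lay higher in females at unadjusted p under 0.05 and 0 were called, and the part of these cells was not tested. The strain difference itself was not shown to depend on sex for any member, where 0.015% of all genes were called in each direction by edgeR, the 1 tool run for it. At an unadjusted p under 0.05, 2 members had a positive difference (Ppp1r3c and Pfkfb1) and 1 a negative one (Tkfc), against 3.92% and 3.95% of all genes. The difference was positive for 15 of 34 members, against 45.8% of all genes. Ppp1r3c had the smallest p of this interaction (log2 difference 1.30, BFMI minus B6N in females less that in males, SE 0.406, adjusted p = 0.480).

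F1 males were also set against the mean of the inbred strains, with sex in the fit. Diet, as the labels give it, and lane differ between these groups too, so that they and the F1 state cannot be told apart. No member passed the adjusted threshold, where 1.14% of all genes were called higher and 0.916% lower in F1. At an unadjusted p under 0.05, 4 members lay higher and 5 lower, against 9.02% and 7.61% of all genes, and 20 of 34 members had a positive log2 fold change, against 50.8% of all genes. DESeq2 called 4 (Pfkfb1 and Pgd higher, G6pc and Gk lower) and limma voom 1 (Pfkfb1). Without patBFMI 1, edgeR called Pfkfb1 and Pgd higher in F1. Pfkfb1 had the smallest adjusted p, at 35.4 to 53.1 CPM over the 6 F1 males, against 20.2, 37.7, 29.0 and 30.2 CPM in the BFMI male and female and the B6N male and female (log2 fold change 0.79, SE 0.188, adjusted p = 0.0642). G6pc was at 176 to 398 CPM in F1 males, against 261 to 546 CPM in the inbred animals (log2 fold change -0.74, SE 0.211, adjusted p = 0.113). Pgd was at 20.7 to 40.3 CPM in F1 males, against 13.6 to 33.8 CPM in the inbred animals (log2 fold change 0.57, SE 0.160, adjusted p = 0.106). Both ranges overlap, and for Pgd the BFMI animals lay among the F1 males. The other members at unadjusted p under 0.05 were Pygl (log2 fold change 0.31), Slc37a4 (0.25), Gapdh (-0.39), Ldha (-0.35), Gk (-0.26) and Ppp1r3c (-0.55). With copies summed the log2 fold changes were -0.37 for Gapdh and -0.35 for Ldha. Single inbred males decided several of these values. Without the BFMI male the log2 fold change was 0.36 for Pfkfb1, -0.15 for Gapdh, -0.70 for Ldha and -1.19 for Ppp1r3c. Without the B6N male it was 1.22 for Pfkfb1, -0.65 for Gapdh, -0.02 for Ldha and 0.14, the opposite sign, for Ppp1r3c. That of Slc37a4 was 0.14 without matBFMI 3. Leaving out the BFMI female or the B6N female gives the same comparison, of F1 males with the BFMI and B6N males. The remaining female is then taken up by the sex term. The log2 fold change of Pfkfb1 stayed positive in every fit that left out 1 library. Of the 31 regulators, Srebf1, which drives lipogenic genes under insulin (log2 fold change 0.78, adjusted p = 0.0393), and Foxo3, of the family that insulin restrains (log2 fold change 0.73, adjusted p = 0.0173), were called higher in F1, as was Got1 of the other gluconeogenic genes (log2 fold change 1.18, adjusted p = 0.0245). Srebf1 was at 201, 189 and 286 CPM in matBFMI and 117, 113 and 129 CPM in patBFMI (matBFMI over patBFMI log2 fold change 0.90, adjusted p = 0.0964). The BFMI and B6N males were at 102 and 89.8 CPM, and the BFMI and B6N females at 174 and 143 CPM. All F1 males therefore lay above both inbred males, and only matBFMI also lay above both inbred females. Of 12 Kupffer cell and macrophage markers, 5 were called lower, with a sum of 253 to 330.3 CPM in F1 males and 311 to 529 CPM in the inbred animals. Of 7 exocrine pancreas markers, 4 were called lower in F1. Among these, Ctrb1, Pnlip and Cpa1 passed the filter only through B6N, so the direction of their calls was fixed by the filter. The 7 summed to 16.6 to 28.1 CPM in F1 males and 16.5 to 120.4 CPM in the inbred animals. Most of the F1 sums was Cela1, not among those called, at 16.4 to 27.9 CPM in F1 males. Pnlip, among those called, was at 0 to 0.118 CPM in F1 males. It was at 0.0494 and 0.116 CPM in the BFMI male and female, against 4.62 and 23.9 CPM in the B6N male and female. The hepatocyte marker Cps1 was called higher (1 of 10) and the cholangiocyte marker Spp1 lower (1 of 6), and the part of these cells in the members' values was not tested.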

How the data were processed

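Liver RNA of 6 F1 males and 4 inbred mice was sequenced. The authors deposited raw read counts per gene (union mode, Ensembl release 81, duplicates removed) and RPKM values, which they computed from reads already quantile normalized across libraries. Read trimming with Trimmomatic 0.32, TopHat2 2.10 with Bowtie2 2.2.6, Picard 1.99 and build mm10 are listed in the processing notes of the submitters, whereas the methods text names BWA. The molecule field names polyA RNA, while the methods text describes ribosomal RNA depletion, and strand use is not given in the sources used here. Columns that match no sample record, 3 per deposited file, were not used.

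Groups followed the labels. Genes reaching 10 counts in 3 or more libraries (F1), or in 2 or more (all 10 libraries), were tested on counts with edgeR 4.0.16 (R 4.3.3; TMM, quasi-likelihood, Benjamini-Hochberg over all genes tested, threshold 0.05). F1 groups were fitted alone, and the strain, sex and F1 against inbred terms in all 10 libraries. DESeq2 1.42.0, limma 3.58.1 (voom, and log2 of RPKM plus a pseudocount of 1 or 0.1), other scalings and filters, the replicate number as a block, and fits without each library in turn were alternatives. The scripts were tested on simulated data. Counting error is small beside the spread between animals for most members, but less so for Pck2, Pfkfb3 and G6pdx. The common biological coefficient of variation was 15.9% in F1 and 17.7% in all libraries.

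The members and gene lists were chosen with earlier results of these data known. Values in every library were given for members past the adjusted threshold and for up to 8 more per comparison with the smallest p, and others were added to complete a branch. Of 41388 IDs, 40254 matched GENCODE release M21, which gave coordinates and, with BLAST 2.17.0, near-identical copies. Promoters came from RefSeq (GRCm38.p6). Tables and plots were made with matplotlib 3.10.9, numpy 2.4.6 and pandas 2.3.3 in Python 3.11.15.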

Additional observations from a re-analysis of the deposited data

How the results depend on the processing

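Across the scalings alone, the sign changed for 4 of 34 members between matBFMI and patBFMI, 4 between BFMI and B6N, 2 between females and males and 9 between F1 and inbred animals. Of the alternative values of members past the threshold or at unadjusted p under 0.05, 221 kept their side of the threshold and 13 passed it newly between matBFMI and patBFMI. Between BFMI and B6N, 175 kept it, 10 lost it, 14 passed it newly and 1 reversed, and the reversed value was Eno1 with its copies summed (log2 fold change 0.18). Between F1 and inbred animals 1 reversed, which was Ppp1r3c without the B6N male (0.14; lowest value without 1 library -1.19, without the BFMI male). The causes were not tested unless stated.

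In the F1 comparison, against 0 members and 24 genes called, the calls were 8 members and 696 genes with no filter on low counts, 4 and 305 with DESeq2, and 2 and 175 with the replicate number as a replicate block. Same-numbered libraries had correlations of deviations of 0.438, 0.0389 and 0.249, so the numbers were not taken to pair the animals. Calls over all genes were 56 with library size scaling alone (45 higher and 11 lower, instead of 16 and 8, with the median of all genes at 0.08), 15 with at least 50 counts, 2 and 2 in RPKM with either pseudocount and 12 in the fit of all 10 libraries.

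Between BFMI and B6N, against 2 members and 1332 genes, the calls were 8 members with no filter, 4 with DESeq2, 6 in the 4 inbred libraries alone, and 0 and 0 in RPKM, where 364 and 320 genes passed with a pseudocount of 1 and 0.1. Between females and males, against 0 members, 4 at unadjusted p under 0.05 and 111 genes, the counts were 2, 10 and 582 with no filter, 2, 8 and 384 with DESeq2, 0, 7 and 209 with limma voom, and 1, 7 and 419 in the inbred libraries alone. RPKM gave 40 and 34 genes, and 7 members at unadjusted p under 0.05 with a pseudocount of 0.1. Between F1 and inbred animals, against 0 members and 410 genes, the calls were 5 and 1410 with no filter, 4 and 871 with DESeq2, 1 and 675 with limma voom, and 264 and 42 genes in RPKM.

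Leaving out 1 library gave 0 members, 6 to 16 members at unadjusted p under 0.05 and 7 to 63 genes in the F1 comparison, the lowest without matBFMI 3 and the most genes without patBFMI 2. The ranges were 1 to 3, 3 to 13 and 536 to 1523 between the strains, 0, 4 to 7 and 38 to 156 between the sexes, and 0 to 2, 4 to 10 and 13 to 937 between F1 and inbred animals. The fewest genes were called without the B6N male (536), the B6N female (38) and the BFMI male (13), and the 937 came without patBFMI 1. Where this left 1 animal in an arm, that animal was assumed to vary like the other groups. Leaving out either inbred female gives the same strain contrast, of the males, and leaving out either inbred male gives that of the females. Pck2, Pfkfb3 and G6pdx, with as few as 60, 124 and 234 reads in a library, carry the most counting error.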
